A study of Mus musculus with 72 samples.

Results

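The annexins and their S100 partners were followed here through 10 genes, Anxa1, Anxa2, Anxa3, Anxa4, Anxa5, Anxa6, Anxa7, Anxa11, S100a10 and S100a11, out of 19938 genes measured in the livers of 4 mouse strains. The genes were listed by name, and each was read from the probe set with its symbol alone that had the highest mean over all arrays. The list was chosen by the HFD minus control differences of these livers within each strain, so those differences are given as descriptions, without a test. The samples were 72 livers of singly housed, random-fed, wild-type males, each on 1 Affymetrix array. One arm was fed a high-fat diet (HFD) for 21 days and the other arm were controls. The protocol names a low-fat diet of at most 21 days, while the treatment label of the controls reads none, so what each control ate was not settled. There were 8 control and 7 HFD livers of 129P2/OlaHsd (129), 8 and 7 of C57BL/6J (B6J), 8 and 8 of C57BL/6NTac (B6N), and 18 and 8 of C3HeB/FeJ (C3H). All 129 mice were 17 weeks old. HFD mice of the other strains were also 17 weeks old, while their controls were 15 to 17 weeks old, so age went partly with diet and its part in the differences was not tested. Nothing in the labels says that livers shared a cage, litter or day, and p-values measure the spread between these livers.

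Annexins are cytosolic proteins that bind acidic phospholipids of membranes when calcium rises, and they take part in membrane repair, vesicle traffic and the anchoring of actin to membranes. S100 proteins are small dimeric proteins of the EF-hand family, and several of them clamp the amino-terminal tails of annexins. S100a10 encodes p11, which holds annexin A2 in a heterotetramer at the plasma membrane, and S100a11 encodes a partner of annexin A1. Liver is mostly hepatocytes by mass, and annexins are also made by its endothelial, stellate, bile duct and immune cells. In such bulk tissue, fewer cells of a type and less RNA per cell cannot be told apart.

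Values are log2 expression from the RMA algorithm, which corrects background, scales the arrays to each other and summarises the probes of a set. The median over probe sets was 6.46 to 6.65 on the 129 arrays, 4.51 to 4.67 on the B6J and B6N arrays together, and 3.10 to 3.28 on the C3H arrays. The arrays were therefore read as 3 separately normalised sets, and levels were compared between strains only for B6N and B6J. No level was compared between genes. The tissue label was checked on 15 hepatocyte genes, all of which lay above the array median on every array. The first principal component of the deviations from group means held 33.3%, 33.1%, 31% and 26.9% of that variance in 129, B6J, B6N and C3H. In 129 control replicate 6 stood apart on it, with a score of -54.3 against 22.7 for the next largest in size. The 31 B6J and B6N livers fell on both sides of zero on such a component largely by replicate number, and these sides are called part 1 and part 2 below.

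The promoter stretches of the RefSeq table (GRCm38.p6) covered 7 of the 10 genes. The 250 bases before the start of Anxa2, the gene with the largest diet difference, and of S100a11, the only S100 gene of the list in that table, are printed to show where 2 short motifs lie. Capitals mark the letters bound by AP-1 factors, TGANTCA, and in Anxa2 also those of the TATA box, TATAAA. The AP-1 pattern is its own reverse complement, so its matches lie on both strands, while the TATA letters lie on the plus strand.
Anxa2, chr9:69453433-69453682, plus strand: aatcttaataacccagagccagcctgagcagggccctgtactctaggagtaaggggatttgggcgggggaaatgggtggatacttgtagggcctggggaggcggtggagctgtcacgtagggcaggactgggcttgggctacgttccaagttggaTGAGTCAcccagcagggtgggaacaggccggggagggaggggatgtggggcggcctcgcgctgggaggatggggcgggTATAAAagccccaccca
S100a11, chr3:93520246-93520495, plus strand: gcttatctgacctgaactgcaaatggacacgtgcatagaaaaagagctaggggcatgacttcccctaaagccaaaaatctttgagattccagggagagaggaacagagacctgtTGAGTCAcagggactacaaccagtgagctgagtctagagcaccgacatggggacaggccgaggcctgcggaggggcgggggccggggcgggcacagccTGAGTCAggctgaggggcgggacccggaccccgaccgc
In Anxa2 the AP-1 letters begin 95 bases before the start and the TATA box 17 bases before it. In S100a11 the AP-1 letters occur at 136 and at 38 bases before the start. The search covered both strands of windows reaching 50 bases past the start, and the motifs shared no bases. The 7 genes had 9 windows, with 1 each for Anxa2, S100a11 and Anxa1. The AP-1 letters were in 2 of these 9 windows and in 7.81% of the 32851 windows of this length in the table. The TATA letters were in 2 of the 9 windows, those of Anxa2 and Anxa1, and in 13.6% of all windows. A match is a description of the letters and not of binding. S100a10 and S100a11 are near neighbours on chromosome 3 in the same assembly, with 1 listed gene between them, while Anxa2 lies on chromosome 9.

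Anxa2, which encodes annexin A2, was the gene of the list that differed most between the diets. In B6N it was higher in HFD livers by 0.91 ± 0.10 (log2, SE), a ratio of 1.88 with a 95% interval of 1.63 to 2.18. The 8 B6N controls lay at 5.19 to 5.90 with a median of 5.57, and the 8 HFD livers at 6.08 to 6.99 with a median of 6.39. Every HFD liver of this strain was above every control. In B6J the difference was 0.42 ± 0.11, a ratio of 1.34 (95% interval 1.15 to 1.55). The 8 B6J controls lay at 5.24 to 5.56 with a median of 5.42, and the 7 HFD livers at 5.67 to 6.31 with a median of 5.78. These groups did not overlap either, and B6J HFD replicate 4, at 6.31, lay well above the other HFD livers, of which the highest was at 5.83.

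In 129 the Anxa2 difference was 0.28 ± 0.11, a ratio of 1.22 (95% interval 1.05 to 1.41). The 8 controls of 129 lay at 7.24 to 7.54 with a median of 7.34, and the 7 HFD livers at 7.31 to 7.92 with a median of 7.74. The groups overlapped, and 5 of the 7 HFD livers were above all controls. In C3H the difference was 0.08 ± 0.09, a ratio of 1.06 (95% interval 0.934 to 1.19). The 18 C3H controls lay at 3.68 to 4.50 with a median of 4.0, and the 8 HFD livers at 3.88 to 4.62 with a median of 4.08. Here the groups overlapped almost completely, and the upper end of the HFD livers was C3H HFD replicate 1 alone. On average Anxa2 lay 0.87 above the array median in C3H controls and 0.92 in C3H HFD livers. In B6N it lay 0.95 above it in controls and 1.87 in HFD livers. Without detection calls, how far these levels stand above background is not known.

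**Figure D1:**
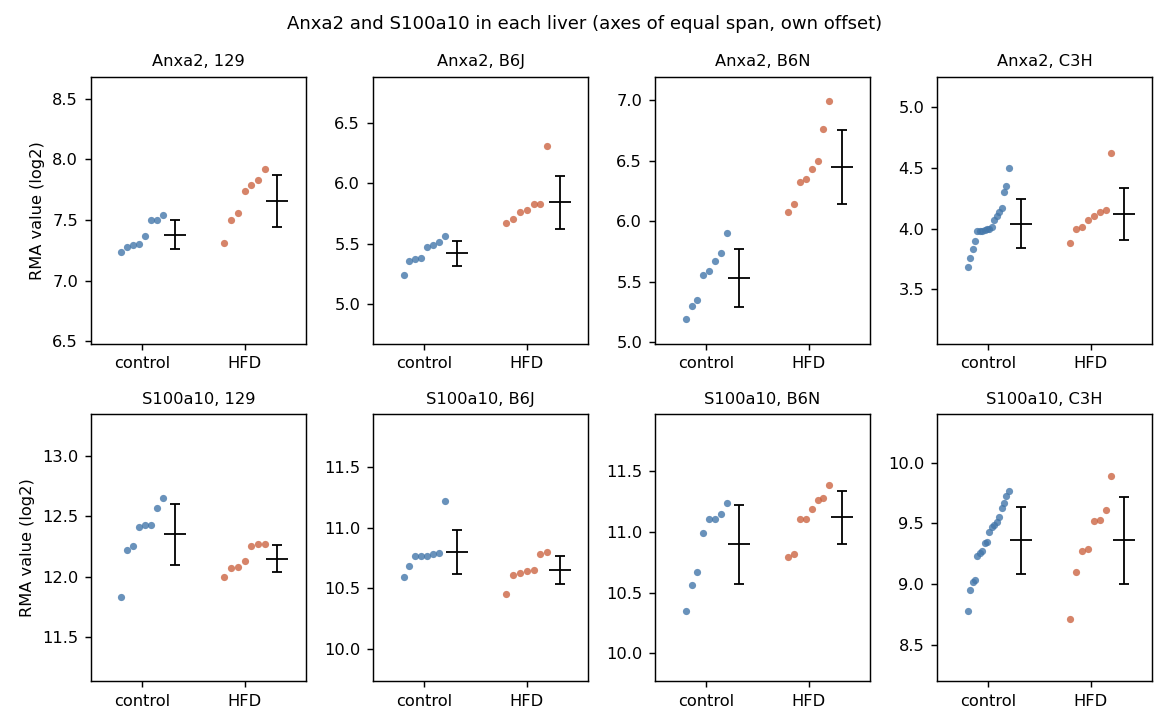
RMA values (log2, y axis) of Anxa2 (upper row) and S100a10 (lower row) in each control and HFD liver of the 4 strains; each point is 1 liver, ordered by value, and the black mark is the group mean ± SD, with axes of equal span but their own offset. HFD livers of B6N and B6J lie above all controls for Anxa2, while the S100a10 groups overlap in every strain.

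The diet difference of Anxa2 was larger in B6N than in B6J by 0.50 ± 0.15 (95% interval 0.20 to 0.80), than in 129 by 0.63 ± 0.15 (0.33 to 0.93) and than in C3H by 0.83 ± 0.14 (0.56 to 1.11). Between B6J and 129 it differed by 0.13 ± 0.15, with an interval of -0.17 to 0.44 that includes 0. Separately normalised sets can compress differences unequally, so the contrast of B6N with B6J, which share a set, is the one free of that limit. In B6N the difference was 0.89 among the livers of part 1 and 0.98 among those of part 2, and in B6J it was 0.47 and 0.29. When each liver was left out in turn, the B6N value ran from 0.84 to 0.96 and the B6J value from 0.34 to 0.45.

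At an adjusted p under 0.05 (limma, adjusted by Benjamini-Hochberg over all 19938 genes), 1 of the 10 genes passed in B6N, which was Anxa2, and 0 of 10 in 129, B6J and C3H. Over all genes 0.918% passed in B6N, 0.577% in 129, 0.296% in B6J and 0.853% in C3H. Unadjusted limma p-values under 0.05 numbered 3, 2, 2 and 2 of the 10 genes in 129, B6J, B6N and C3H, beside 5.48%, 5.78%, 5.68% and 8.24% of all genes. Since the list was drawn up on these differences, the counts describe it and test nothing. Among the genes that passed and were higher in B6N HFD livers, 31 had a larger difference than Anxa2. HFD livers all above controls, as for Anxa2, were found in 0.241% of all genes in B6N and 0.145% in B6J. The median difference of the 10 genes was 0.18 in B6N, where 9 of 10 were above 0, and 0.05, -0.01 and -0.01 in 129, B6J and C3H, where 6, 5 and 5 were. With the arrays quantile-normalised anew or centred on their medians, differences near 0 changed sign for Anxa7 in 129 and for Anxa3, Anxa4 and S100a10 in C3H. None did in B6J or B6N. The genes that changed sign in C3H were among its 5 above 0, so that count depended on the normalisation. The median over all genes was within 0.01 of 0 in each strain.

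**Figure D2:**
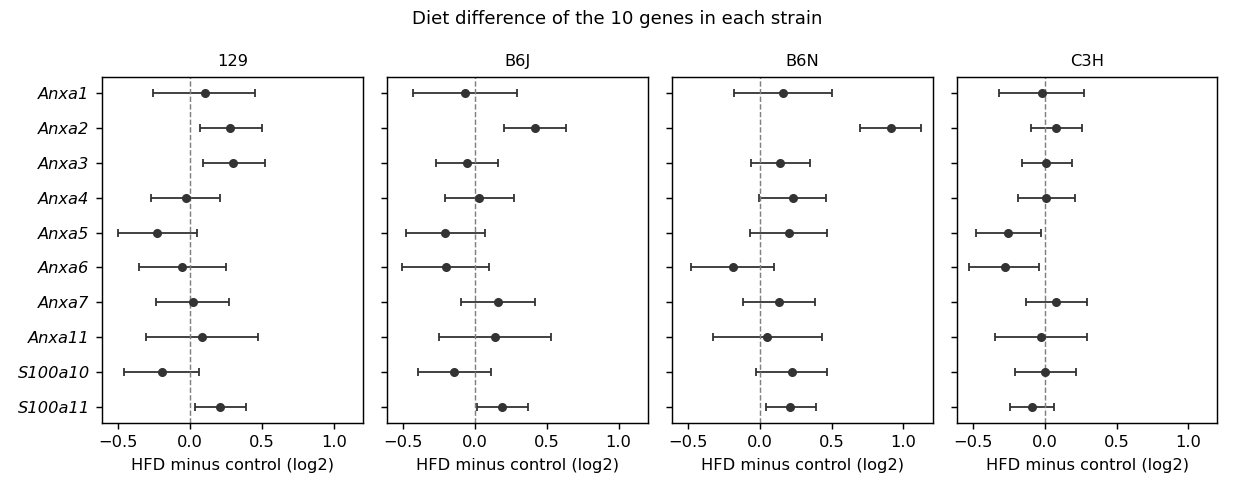
HFD minus control difference (log2, x axis) of the 10 genes (y axis) in each strain, with 95% intervals from the limma fit; the dashed line is 0. Anxa2 in B6N, at 0.91, is the point farthest from 0, and most other intervals include 0.

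S100a10, which encodes the p11 partner of annexin A2, did not share that size of difference. It was 0.22 ± 0.13 higher in HFD livers of B6N, where controls lay at 10.35 to 11.24 (median 11.05) and HFD livers at 10.79 to 11.39 (median 11.15). In 129 it was lower by a difference of -0.20 ± 0.13, with controls at 11.83 to 12.65 (median 12.42) and HFD livers at 12 to 12.27 (median 12.13). None of the 7 HFD livers of 129 was above the control mean, although the groups overlapped. In B6J the difference was -0.15 ± 0.13, with controls at 10.59 to 11.22 (median 10.77) and HFD livers at 10.45 to 10.80 (median 10.64). In C3H it was 0.00 ± 0.11, with controls at 8.78 to 9.77 (median 9.39) and HFD livers at 8.71 to 9.89 (median 9.40). The diet difference of S100a10 in B6N exceeded that in B6J by 0.37 ± 0.18 (95% interval 0.01 to 0.72) and that in 129 by 0.42 ± 0.18 (0.06 to 0.78). It exceeded that in C3H by 0.22 ± 0.16, with an interval of -0.11 to 0.54 that includes 0. These intervals, like those given for Anxa2 and Anxa5, describe differences that chose the list and test nothing.

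S100a11, which encodes the partner of annexin A1, had differences of like size in 3 strains. It was higher in HFD livers by 0.21 ± 0.09 in 129, 0.19 ± 0.09 in B6J and 0.21 ± 0.09 in B6N, and differed by -0.09 ± 0.07 in C3H. In B6N controls lay at 5.8 to 6.16 (median 5.93) and HFD livers at 5.88 to 6.37 (median 6.23), with 6 of 8 HFD livers above all controls. In B6J controls lay at 5.72 to 6.19 (median 5.98) and HFD livers at 6.03 to 6.34 (median 6.10), and all 7 HFD livers were above the control mean. In 129 the HFD livers lay at 8.63 to 9.36 (median 8.64) against controls at 8.42 to 8.74 (median 8.55). The value of 9.36, in 129 HFD replicate 7, stood apart, and leaving out single livers took the 129 difference from 0.11 to 0.23. A second S100a11 probe set gave 0.25, 0.17, 0.17 and -0.04 in 129, B6J, B6N and C3H, and its deviations from group means correlated with those of the first at 0.80 over the 72 arrays.

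Anxa1, which encodes an anti-inflammatory annexin induced by glucocorticoids, differed by 0.10 ± 0.18, -0.07 ± 0.18, 0.16 ± 0.17 and -0.02 ± 0.15 in 129, B6J, B6N and C3H. Its level was below the array median in all 15 livers of 129, where it cannot be told from background. In B6N its controls lay at 5.14 to 6.20 and its HFD livers at 5.19 to 6.28, an overlap that covered most of both groups. Anxa3, abundant in neutrophils, was 0.30 ± 0.11 higher in HFD livers of 129, with controls at 6.53 to 6.86 (median 6.74) and HFD livers at 6.80 to 7.29 (median 7.04). All 7 of these HFD livers were above the control mean and 5 were above every control. Both groups were near the array median, on average 0.22 above it in controls and 0.53 in HFD livers, where a level cannot be told from background. In B6J, B6N and C3H the Anxa3 difference was -0.06 ± 0.11, 0.14 ± 0.10 and 0.01 ± 0.09, and in C3H its level was below the array median in 15 of 26 livers. The neutrophil list of 11 genes lay with all its means below the array median in every group.

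Anxa4, an annexin of epithelial cells, differed by 0.23 ± 0.12 in B6N, where controls lay at 7.56 to 8.32 (median 7.94) and HFD livers at 7.97 to 8.52 (median 8.12). All 8 of these HFD livers were above the control mean, but only 2 were above every control. In 129, B6J and C3H the Anxa4 difference was -0.03 ± 0.12, 0.03 ± 0.12 and 0.01 ± 0.10. Anxa7, known from the aggregation of secretory granules, differed by 0.02 ± 0.13, 0.16 ± 0.13, 0.13 ± 0.12 and 0.08 ± 0.11 in 129, B6J, B6N and C3H. Anxa11, which binds the calcium sensor ALG-2 and takes part in cell division, differed by 0.08 ± 0.20, 0.14 ± 0.20, 0.05 ± 0.19 and -0.03 ± 0.16 in the same order. The intervals of Anxa7 and Anxa11 included 0 in all 4 strains.

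Anxa5, best known as the protein that binds exposed phosphatidylserine on dying cells, was lower in HFD livers of 3 strains and higher in B6N. In 129, B6J and C3H the differences were -0.23 ± 0.14, -0.21 ± 0.14 and -0.26 ± 0.11, and in B6N the difference was 0.20 ± 0.13. C3H controls lay at 7.94 to 8.63 (median 8.32) and HFD livers at 7.73 to 8.52 (median 8.01), with 1 of 8 HFD livers above the control mean. In B6N controls lay at 9.62 to 10.16 (median 9.88) and HFD livers at 9.66 to 10.82 (median 10.05), with 3 HFD livers above all controls. The Anxa5 difference of B6N exceeded that of B6J by 0.41 ± 0.19 (95% interval 0.02 to 0.79) and that of C3H by 0.46 ± 0.18 (0.11 to 0.81). Within the parts of the B6 livers, the B6N difference of Anxa5 was -0.01 in part 1 and 0.28 in part 2, and the B6J difference was -0.03 and -0.25. In part 1 both strains were thus close to 0, and the opposite directions of B6N and B6J were seen in part 2 alone. In B6J and B6N the deviations of Anxa5 had r = -0.73 and -0.66 with the first principal component, whose part in these differences was not tested.

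Anxa6, an annexin of endosomes and cholesterol traffic that is abundant in liver, was the only gene of the list lower in HFD livers of all 4 strains. The differences of 129, B6J, B6N and C3H were -0.06 ± 0.15, -0.20 ± 0.15, -0.19 ± 0.15 and -0.28 ± 0.12. C3H controls lay at 6.56 to 7.79 (median 7.49) and HFD livers at 6.43 to 7.53 (median 7.06). These groups overlapped over most of their range. A second, dimmer Anxa6 probe set gave -0.10, -0.04, 0.05 and 0.05 in 129, B6J, B6N and C3H, and its deviations correlated with those of the first at only 0.10, so the direction of Anxa6 in B6N and C3H depended on the probe set. Without 129 control replicate 6, the 129 differences were -0.35 for Anxa5, -0.18 for Anxa6, -0.06 for Anxa7 and -0.02 for Anxa11, and the median of the 10 genes was -0.04.

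B6N and B6J are close substrains, and their comparison within a diet was not used to choose the genes. In control livers 0 of the 10 genes passed limma's test at an adjusted p under 0.05, beside 0.0351% of all genes, and 1 of 10 had an unadjusted p under 0.05, beside 6.85% of all genes. Anxa2 was 0.11 ± 0.10 higher in B6N controls (adjusted p = 0.86, limma), with 5.19 to 5.90 in B6N and 5.24 to 5.56 in B6J. S100a10 was 0.10 ± 0.13 higher (adjusted p = 0.89, limma). The gene with the unadjusted p under 0.05 was Anxa3, at -0.22 ± 0.10 in B6N relative to B6J (unadjusted p = 0.038, adjusted p = 0.72, limma), and none of the 8 B6N controls was above the B6J mean. For Anxa2 the 95% interval of the difference between the control groups was -0.10 to 0.32.

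In HFD livers 1 of the 10 genes, Anxa2, passed, beside 0.191% of all genes, and 2 of 10, Anxa2 and S100a10, had an unadjusted limma p under 0.05, beside 6.14% of all genes. It was 0.61 ± 0.11 higher in B6N, a ratio of 1.52 (95% interval 1.31 to 1.77, adjusted p = 0.00064, limma). All 8 B6N livers were above the B6J mean and 6 were above every B6J liver, while B6J HFD replicate 4, at 6.31, reached into the B6N range of 6.08 to 6.99. This comparison uses the same HFD arrays as the diet differences for which Anxa2 was chosen, so it is not independent of them. Among the genes that passed and were higher in B6N, 9 had a larger difference than Anxa2. Within part 1 the Anxa2 difference was 0.68 (adjusted p = 0.016, limma), and within part 2, which held 5 B6N and 2 B6J HFD livers, it was 0.65 (adjusted p = 1, limma), where 0 genes in all passed.

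S100a10 was 0.47 ± 0.13 higher in B6N than in B6J HFD livers, a ratio of 1.38 (95% interval 1.16 to 1.65), and did not pass (unadjusted p = 0.00056, adjusted p = 0.16, limma). The B6N livers lay at 10.79 to 11.39 and the B6J livers at 10.45 to 10.80, and 7 of 8 B6N livers were above every B6J liver. The adjusted p was 0.03 with the arrays quantile-normalised anew, 0.031 with array weights and 0.044 with the first principal component in the model, so this call depended on the setting. Anxa5 was 0.28 ± 0.14 higher in B6N HFD livers (adjusted p = 0.81, limma). The other 7 genes differed by -0.15 to 0.18, and none of them passed.

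**Figure D3:**
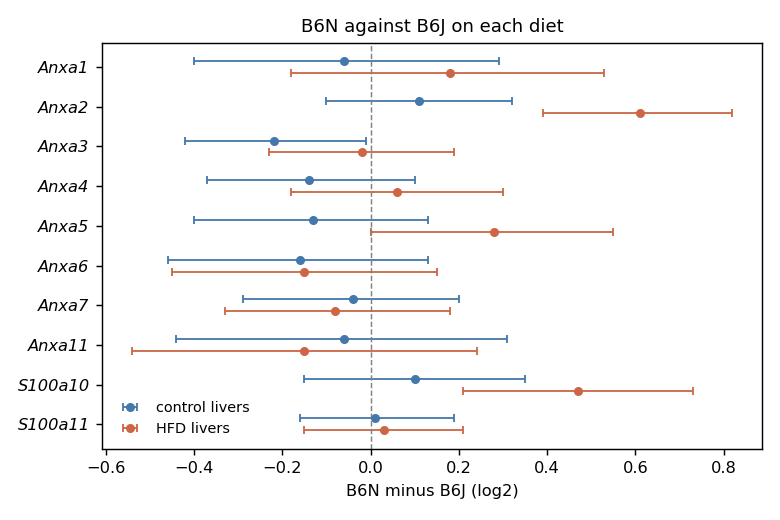
B6N minus B6J difference (log2, x axis) of the 10 genes (y axis) in control livers (blue) and HFD livers (orange), with 95% intervals from the limma fit; the dashed line is 0. Anxa2 and S100a10 are at 0.11 and 0.10 in control livers and at 0.61 and 0.47 in HFD livers.

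Whether the genes varied together from liver to liver was read from the deviation of each liver from its group mean, which holds no diet or strain difference. Of the 45 pairs of the 10 genes, 16 had a correlation with an adjusted p under 0.05 (100000 permutations of the livers within their groups, two-sided, adjusted over the 45 pairs), 9 positive and 7 negative. The share of such pairs among all genes was not computed, so the count does not set these genes apart from others. Anxa2 and S100a10, whose proteins bind each other, had r = 0.45 and rho = 0.43 over the 72 livers (permutation p = 0.00022 for r and 0.00043 for rho, adjusted p = 0.0016 and 0.0024). Without the 2 livers farthest from the median in Anxa2 it was 0.44. Ranked by this correlation with Anxa2, S100a10 was number 27 of 19937 other genes, while Anxa2 was number 597 for S100a10. The other partner pair, Anxa1 with S100a11, had r = -0.05 and rho = -0.06 (adjusted permutation p = 0.84 for r). Anxa1 with S100a10, not named as partners above, had r = 0.44 and rho = 0.34 (adjusted permutation p = 0.0032 for r).

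By strain, r of Anxa2 with S100a10 was 0.61 in the 16 livers of B6N, 0.55 in the 15 of B6J, 0.48 in the 26 of C3H and -0.06 in the 15 of 129. The adjusted permutation p over these 4 values was 0.022 in B6N, B6J and C3H and 0.8 in 129, and rho was 0.67, 0.62, 0.41 and 0.03. Without the 2 livers farthest from the median in Anxa2, r was 0.58 in B6N, 0.32 in B6J, 0.39 in C3H and -0.05 in 129. The B6J value thus rested in good part on 2 livers. Within single groups r ran from 0.36 to 0.67 in the 6 groups of B6J, B6N and C3H, and it was -0.20 in controls and 0.11 in HFD livers of 129. In part 1 of the B6 livers r was 0.64 (n = 16, rho = 0.70, permutation p = 0.0075) and in part 2 it was 0.49 (n = 15, rho = 0.32, permutation p = 0.2). With the first principal component of each strain removed, r over all livers was 0.47 (adjusted permutation p = 0.0016). Whether the strains differed in this correlation was not tested.

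**Figure D4:**
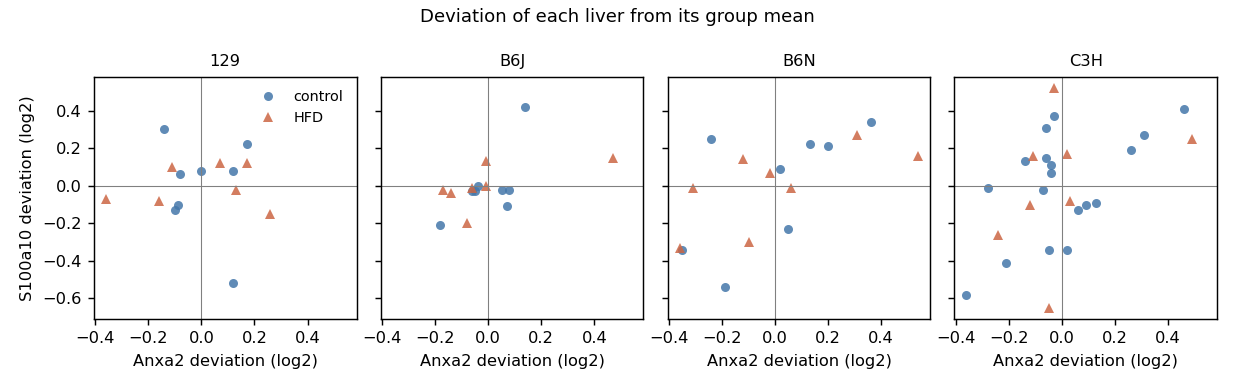
Deviation of each liver from its group mean (log2) for Anxa2 (x axis) and S100a10 (y axis) in the 4 strains, with circles for controls and triangles for HFD livers. The points rise together in B6J, B6N and C3H (r = 0.55, 0.61 and 0.48) and show no slope in 129 (r = -0.06).

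The highest correlations of the list did not involve Anxa2. Anxa6 and Anxa11 had r = 0.70 and rho = 0.65, Anxa4 and Anxa7 had r = 0.64 and rho = 0.52, and Anxa6 and Anxa7 had r = 0.60 and rho = 0.62 (adjusted permutation p = 0.00015 for each r, from the smallest p that the permutations can give, 1e-05). Without the 2 livers farthest from the median in the first gene of the pair these were 0.69, 0.52 and 0.56. For the first gene of each pair its partner was number 869, 265 and 1498 of 19937 other genes, and in reverse 284, 190 and 367. Anxa7 and Anxa11 had r = 0.49 and rho = 0.45 (adjusted permutation p = 0.00067, and r = 0.50 without 2 livers). The Anxa6 and Anxa11 correlation was 0.84, 0.82, 0.87 and 0.56 within 129, B6J, B6N and C3H. All correlations of Anxa6 here and below rest on 1 probe set, whose deviations had r = 0.10 with those of the second. Correlations of the second alone are not given.

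Against Anxa6 and Anxa11 ran Anxa1, Anxa3 and S100a10. Anxa1 with Anxa11 had r = -0.48 and rho = -0.48 (adjusted permutation p = 0.0014), and without 2 livers r was -0.44. Anxa6 with S100a10 had r = -0.47 and rho = -0.44 (adjusted permutation p = 0.0019), and without 2 livers r was -0.42. Within 129, B6J, B6N and C3H, r was -0.76, -0.23, -0.16 and -0.65 for Anxa1 with Anxa11. In the same order it was -0.79, 0.02, -0.30 and -0.52 for Anxa1 with Anxa6, and -0.68, -0.51, -0.28 and -0.49 for Anxa6 with S100a10. Anxa1 in all 129 livers and Anxa3 in many C3H livers lay below the array median, where values cannot be told from background. The remaining negative pairs past the threshold were Anxa1 with Anxa6 and with Anxa5, Anxa3 with Anxa6 and with Anxa11, and Anxa11 with S100a10, at -0.29 to -0.42. Anxa1 with Anxa4, by contrast, was positive at r = 0.34 (rho = 0.31, adjusted permutation p = 0.04, and r = 0.43 without 2 livers).

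The genes moved with the first principal component over all genes, and differently by strain. In 129, where control replicate 6 dominated the component, the correlation with it was 0.90 for Anxa6, 0.87 for Anxa11, 0.85 for Anxa7, 0.78 for Anxa5 and -0.66 for Anxa1 and S100a10. In B6J and B6N it was 0.77 and 0.81 for Anxa4, 0.77 and 0.79 for Anxa7, 0.73 and 0.64 for Anxa1, 0.26 and 0.39 for Anxa6 and 0.26 and 0.50 for Anxa11. In C3H it was 0.83 for Anxa11, 0.67 for Anxa6 and -0.71 for Anxa1. The sign of a component is arbitrary in each strain, so only the order of the genes within a strain can be read.

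With that component removed, 10 of the 45 pairs passed, 8 positive and 2 negative, of which 6 were among the 16 above. The 6 were Anxa2 with S100a10 (r = 0.47), Anxa4 with Anxa7 (0.70), Anxa6 with Anxa7 (0.46) and with Anxa11 (0.45), and Anxa1 with Anxa6 (-0.33) and with Anxa11 (-0.42). Lost were 10 pairs, among them Anxa7 with Anxa11 (adjusted permutation p = 0.12), Anxa3 with Anxa6 and with Anxa11 (0.21 each) and S100a10 with Anxa11 (0.073) and with Anxa6 (0.05). Gained were Anxa5 with Anxa4 (r = 0.54), with Anxa2 (0.45) and with Anxa7 (0.44), and S100a10 with S100a11 (0.34), with adjusted permutation p-values of 0.00022, 0.0038, 0.001 and 0.023. With the B6 part as a block, 17 pairs passed, 11 positive and 6 negative, and 13 of these were among the 16. Lost were Anxa1 with Anxa4 (adjusted permutation p = 0.22) and with Anxa5 (0.37) and Anxa2 with Anxa4 (0.1). Gained were Anxa5 with Anxa7 (r = 0.57), with Anxa2 (0.46), with Anxa4 (0.46) and with Anxa6 (0.44). Anxa5, the phosphatidylserine binder, was in 3 of the 4 pairs gained with the component removed and in all 4 gained with the block.

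**Figure D5:**
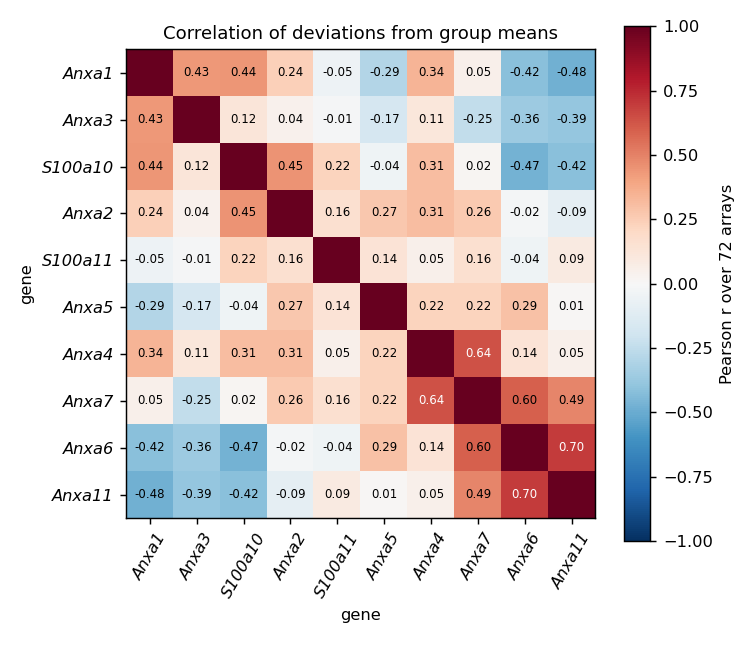
Pearson r over 72 livers between the deviations from group means of each pair of the 10 genes, as colour and number. Anxa6, Anxa7 and Anxa11 form positive pairs of 0.49 to 0.70, Anxa4 pairs with Anxa7 at 0.64, and Anxa1, Anxa3 and S100a10 are negative against Anxa6 and Anxa11.

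Among the 9968 other genes with a mean above the median, the ones most like Anxa2 in these deviations over 72 livers were Tceal8 (r = 0.52), Dennd2d (0.50), Slc16a7 (0.49), Rora (0.48) and Cog4 (0.47). Those most like S100a10 were Sar1b (0.74), Ndufv2 (0.73), Tfpi2 (0.72), Ebpl (0.72) and Gstz1 (0.70). The gene most like each other member was Phospho2 for Anxa1 (0.78), Zbtb33 for Anxa3 (0.52), Copg2 for Anxa4 (0.80), Cryl1 for Anxa5 (0.73), Ctsa for Anxa6 (0.90), Anapc5 for Anxa7 (0.80), Ctdnep1 for Anxa11 (0.83) and Cnfn for S100a11 (0.51). These values are descriptions over the same arrays and share the array structure given above. Anxa2, Anxa3 and S100a11 had no gene above 0.52, while Anxa6 had several at 0.90.

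Genes that work with annexins and S100 proteins were taken from 5 lists. In B6N, where Anxa2 differed most, 0 of 4 other annexins, 0 of 14 other S100 genes, 0 of 17 measured partners of annexins and S100 proteins, 0 of 18 membrane repair genes and 0 of 19 measured actin cytoskeleton genes passed limma's test, with 0, 1, 1, 1 and 2 at an unadjusted p under 0.05. Their median differences there were 0.03, -0.08, 0.02, 0.07 and -0.06. In B6N controls the means of 4 of 4, 11 of 14, 6 of 17, 4 of 18 and 1 of 19 of these genes were below the array median, where a level cannot be told from background, so the counts say little about the other annexins and S100 genes. Ahnak, a large scaffold protein that binds the annexin A2 and S100A10 complex, differed by -0.09 ± 0.08 in B6N. In B6J and C3H 0 genes of the 5 lists passed, with 2 and 3 at an unadjusted p under 0.05.

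In 129, 2 genes of these lists passed limma's test. Pla2g4a, the cytosolic phospholipase A2 that annexin A1 can inhibit, rose by 0.45 ± 0.11 (adjusted p = 0.031, limma), from a mean of 6.15 to 6.60. Cav1, which encodes caveolin-1 of plasma membrane pits, rose by 0.51 ± 0.12 (adjusted p = 0.023, limma), from 6.70 to 7.21. The array medians of 129 ran from 6.46 to 6.65. The Pla2g4a mean was thus below them in controls and among them in HFD livers, where a level cannot be told from background. The Cav1 control mean lay just above them. In B6N Pla2g4a and Cav1 differed by 0.00 ± 0.11 and -0.05 ± 0.12. With only the 129 arrays in the fit, neither passed, and leaving out single 129 livers gave counts from 0 to 4 genes of the lists.

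Markers of other liver cell types were set beside Anxa2. The 20 macrophage and Kupffer cell genes had a median diet difference of 0.44 in 129, where 6 passed, 0.27 in B6J, 0.03 in B6N and 0.07 in C3H, where 0 passed in each (8, 0 and 2 at an unadjusted limma p under 0.05). In B6N, with the largest Anxa2 difference, the mean level of that list was 6.56 to 6.94 in controls and 6.62 to 7.03 in HFD livers, and 2 of its 20 genes had means below the array median in each group. The corresponding range in 129 was 7.85 to 8.22 in controls and 8.08 to 9.05 in HFD livers. Those called in 129 were Adgre1 (0.97), Cd5l (0.79), C1qb (0.77), C1qc (0.75), Cd68 (0.52) and Clec4f (0.44). In B6N the median differences of the endothelial, stellate cell and bile duct lists were 0.09, 0.01 and -0.03. Of their measured genes 0 of 14, 0 of 16 and 0 of 9 passed limma's test (1, 1 and 0 at an unadjusted p under 0.05). In each B6N group 0 of 14, 1 of 16 and 5 of 9 of these genes had means below the array median. The bile duct counts therefore say little.

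The pancreatic acinar list, a sign of adjacent tissue in the sample, had a median difference of 1.2 in B6N, where 0 of 13 measured genes passed and 4 had an unadjusted limma p under 0.05. Its mean level there was 4.72 to 6.64 in controls and 4.98 to 8.24 in HFD livers. The correlation of that list with Anxa2 in deviations from group means was 0.00 (rho = 0.01, adjusted permutation p = 0.98 over 10 lists). Cidec, a lipid droplet protein gene on the adipocyte list that steatotic hepatocytes also express, rose by 1.04 ± 0.16 in B6N (adjusted p = 9.7e-06, limma), and it was the only one of 9 measured adipocyte genes to pass there. The median of that list was 0.10, and its mean level was 5.43 to 5.6 in controls and 5.63 to 5.81 in HFD livers, so these ranges did not overlap. That mean level includes Cidec itself, and the level without Cidec was not computed. The part of these marker lists in the Anxa2 difference was not tested.

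From liver to liver, the deviations of Anxa2 correlated with those of the endothelial list (r = 0.36, rho = 0.39), the stellate cell list (r = 0.32, rho = 0.34), the macrophage list (r = 0.31, rho = 0.42) and the neutrophil list (r = -0.28, rho = -0.32), each with an adjusted permutation p of 0.037 over 10 lists. All 11 neutrophil genes had means below the array median, so that value cannot be told from background. For the bile duct list r was -0.26 and rho -0.35 (adjusted permutation p = 0.05). Its r was -0.37 without 2 livers and -0.15 with the first principal component removed. Of its 9 genes, 3 to 6 had means below the array median, depending on the group. For the first 4 lists, without the 2 livers farthest from the median in the list, r was 0.33, 0.28, 0.32 and -0.22. With the first principal component removed, r of these 4 was 0.25, 0.20, 0.23 and -0.20. For the hepatocyte list r was -0.03 (rho = -0.10, adjusted permutation p = 0.9).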

How the data were processed

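RNA of 72 livers was measured on Affymetrix Mouse Gene ST arrays. Per the submitters' processing notes, the deposited log2 expression values came from RMA run by the authors in Affymetrix Expression Console 1.1. Whether all arrays were normalised together is not given in the sources used here. No detection calls were used, so a level near or below the array median cannot be told from background, and precision is limited by how many arrays there are.

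Of 35556 probe sets, 21789 carried 1 gene symbol in the platform annotation, updated through Entrez identifiers. Each of 19938 genes was read from the probe set with the highest mean. Anxa6 and S100a11 had 2 probe sets and the others 1. limma 3.58.1 (R 4.3.3) was fitted with 8 group means over all 72 arrays (64 residual degrees of freedom), moderated by eBayes and adjusted by Benjamini-Hochberg at 0.05. The fit was tried on simulated data with noise drawn independently for each gene and array. Components shared between genes, as found in these livers, were not simulated, so the trial does not cover them. Errors are SE, and intervals are 95%.

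The genes and lists were chosen with earlier results of these data known. Named by rule were all 10 genes, at most 4 called genes per other list and comparison, the 5 genes most like Anxa2 and S100a10 and the first for each other. Macrophage genes beyond 4, Ahnak and the values of Cav1 and Pla2g4a in B6N were added after their values were seen. Correlations used numpy 2.4.6 and scipy 1.17.1 in Python 3.11.15, with 100000 permutations within groups. Alternatives covered the probe set, the arrays fitted, normalisation, centring, array weights, brightness, the spread, a replicate block, the first principal component and leaving out each liver. The B6 parts, the sides of zero on the first principal component of the deviations of B6 livers, were added after seeing the data. Replicate numbers were not taken to pair livers: correlations of same-numbered deviations ran from -0.29 to 0.50.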

Additional observations from a re-analysis of the deposited data

Results flagged for a closer look

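Dixon's criterion was applied to the values of the 10 genes in each group except the 18 C3H controls, which were not tested. Of these 70 groups of values, 14 held a liver whose distance to its nearest neighbour was large for its group, which chance gives in about 1 in 20. 129 control replicate 6 accounted for 4 of them. It was highest for Anxa1 at 5.72 (next 5.43) and lowest for Anxa5 at 10.04 (next 10.75), Anxa6 at 9.18 (next 10.04) and Anxa7 at 7.73 (next 8.16). This liver also had the most extreme first principal component score in 129.

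In C3H, HFD replicate 6 was highest for Anxa1 at 4.62 (next 4.02) and lowest for Anxa6 at 6.43 (next 7.02), and HFD replicate 1 was highest for Anxa2 at 4.62 (next 4.15). In B6N, HFD replicate 4 was lowest for Anxa6 at 8.29 (next 8.76) and for Anxa11 at 5.78 (next 6.49). In B6J, HFD replicate 6 was lowest for Anxa1 at 4.98 (next 5.58), HFD replicate 4 was highest for Anxa2 at 6.31 (next 5.83), and control replicate 4 was highest for S100a10 at 11.22 (next 10.79). In 129, HFD replicate 1 was highest for Anxa7 at 8.61 (next 8.27) and HFD replicate 7 was highest for S100a11 at 9.36 (next 8.86).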

How the results depend on the processing

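The diet differences chose the genes, so the counts called on them are descriptions and say nothing about stability. The Anxa2 difference in B6N ran from 0.84 to 0.98 over the alternatives. In B6J the count of 0 became 1 (Anxa2) with only that strain's arrays, with array weights, with the replicate block, with the first principal component as a covariate and without B6N HFD replicate 5. In 129 it became 3 with array weights (Anxa3, Anxa5 and S100a11). Between B6N and B6J HFD livers, 2 passed with quantile normalisation, array weights or the first principal component, the second being S100a10 (0.50, 0.46 and 0.47), and 0 within B6 part 2, where Anxa2 was at 0.65. The 2 other genes called became 0 with only the arrays of the strains compared, 8 with array weights, 1 among brighter genes and 4 with the first principal component. The causes were not tested.

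Leaving out 1 liver gave 0 to 1 genes called in B6J, 1 in B6N, 0 in 129, C3H and the control comparison, 1 between HFD livers and 0 to 4 other genes. The medians of the 10 genes ran from -0.04 to 0.06 in 129, -0.04 to 0.06 in B6J, 0.13 to 0.21 in B6N and -0.04 to 0.02 in C3H, and the correlation of Anxa2 with S100a10 from 0.41 to 0.49. With the replicate block (consensus correlation 0.103), the Anxa2 difference was 0.91 in B6N and 0.42 in B6J. Same-numbered livers correlated above 0.1 in 6 of 7 pairs in 129, 5 of 7 in B6J, 7 of 8 in B6N and 1 of 8 in C3H.

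Calls over all genes moved by more than 1.5 times. In 129 they were 115, and 41 with its own arrays, 576 with array weights, 175 with the replicate block and 256 with the first principal component. In B6J they were 59, and 95, 129 and 135 with own arrays, weights and component, and in C3H 170, and 93, 105 and 363. In B6N they were 183, and 276 with the component. Between B6N and B6J they were 7 in controls, and 18 with the component, and 38 in HFD livers, and 347 with weights and 96 with the component. Within B6 parts 1 and 2 the diet calls were 21 and 4 in B6J and 39 and 86 in B6N. The calls between HFD livers were 18 and 0 there, and those between controls 1 in part 2. Centring on the array median turned 103 higher and 67 lower calls in C3H into 69 and 72.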
